A study of Mus musculus with 12 samples.

Results

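The cell cycle genes described here were 42 genes named by symbol, spanning the loading of the replicative helicase, DNA synthesis, the cyclins, entry into mitosis, chromosome segregation and cytokinesis. The brightest probe set with 1 gene symbol stood for each gene. In this way 41 of the 42 were measured, among 19938 genes on the arrays, and Ccnb1 was not analysed here. The genes were listed by name, with earlier results of these data known, and no value set which genes entered.

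A dividing cell copies its DNA in S phase and separates the copies in mitosis, and most of the genes listed here are transcribed in waves tied to those phases. E2F factors drive the genes of DNA replication, while complexes built on MuvB and helped by NF-Y and FoxM1 drive the later genes of mitosis. In the adult spinal cord few cells divide, and after a contusion microglia, oligodendrocyte precursors, ependymal cells, endothelium and astrocytes are known to re-enter the cycle over the following days.

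RNA came from the injured spinal cord of 3 groups of mice: wild type (C57BL/6), mice without interleukin-1 alpha (Il1a KO) and mice without interleukin-1 beta (Il1b KO), cytokine genes that lie near each other on chromosome 2. All mice were on the C57BL/6 background, aged 8 to 12 weeks, and had received a contusion of 50 kdyn. A segment of 6 mm around the lesion was taken at 24 h and hybridised to whole-transcript arrays, 4 arrays in each group. No uninjured cord was analysed here, so the level of each gene before injury is unknown. The labels call the arrays of a group biological replicates but name neither animals nor their sex. A p-value here reflects how far the arrays of a group spread, which may be technical in part.

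The values are on the log2 scale, where a difference of 1 is a doubling, and ran from 2.97 to 14.41. The median of an array lay between 7.67 and 7.72. The mean of 8 neuron markers ran from 11.18 to 11.28 over the 12 arrays, that of 7 mature oligodendrocyte markers from 11.06 to 11.45 and that of 7 astrocyte markers from 10.99 to 11.10, so the defining cells of the cord were represented. Il1b read 6.19 to 6.63 in its knockout against 7.68 to 8.06 in wild type. Il1a read 4.87 to 5.03 in its knockout against 5.74 to 6.22 in wild type, and 4.85 to 5.31 in the Il1b KO. The library labelled Il1a KO replicate 1 stood apart: Xist was 6.47 there against 11.89 to 12.19 in the other 11 arrays, and Eif2s3y, a Y-linked gene, was 9.15 against 3.65 to 3.94. Called genes and the main counts that use the Il1a KO, and differences that move by over 1.5 times, are therefore also given without that array. Some smaller counts that use the Il1a KO are given with all 12 arrays only.

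The letters below show the promoters of 6 cell cycle genes, from 220 bases before to 30 bases after the annotated start, because the binding motifs of the phase-specific regulators sit there. They are the called gene and then those with the largest differences for which RefSeq promoters of GRCm38.p6 held an entry. Each is read 5′ to 3′ on the gene's own strand. Capitals mark the cell cycle genes homology region motif (TTTGAA or TTCGAA), the NF-Y box (CCAAT, seen as ATTGG when on the opposite strand) and the E2F motif. The E2F search used TTTCCCGC and also TTTGGCGC and also TTTCGCGC. All motifs were sought on both strands, and a homology region match on the opposite strand reads TTCAAA or TTCGAA. Bub1b lies at chr2:118597991-118598240 (plus strand), Plk1 at chr7:122159215-122159464 (plus), Top2a at chr11:99024160-99024409 (minus), Prc1 at chr7:80294231-80294480 (plus), Bub1 at chr2:127831830-127832079 (minus) and Mcm7 at chr5:138171854-138172103 (minus).
Bub1b: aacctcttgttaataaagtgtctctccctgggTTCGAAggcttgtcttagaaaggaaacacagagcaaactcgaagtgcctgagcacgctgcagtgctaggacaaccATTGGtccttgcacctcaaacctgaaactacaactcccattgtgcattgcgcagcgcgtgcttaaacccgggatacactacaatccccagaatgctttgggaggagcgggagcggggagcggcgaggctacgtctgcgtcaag
Plk1: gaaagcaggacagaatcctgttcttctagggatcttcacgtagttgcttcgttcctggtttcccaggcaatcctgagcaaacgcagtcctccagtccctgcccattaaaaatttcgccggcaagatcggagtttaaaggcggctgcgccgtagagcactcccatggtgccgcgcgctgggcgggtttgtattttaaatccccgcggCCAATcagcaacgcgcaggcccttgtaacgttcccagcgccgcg
Top2a: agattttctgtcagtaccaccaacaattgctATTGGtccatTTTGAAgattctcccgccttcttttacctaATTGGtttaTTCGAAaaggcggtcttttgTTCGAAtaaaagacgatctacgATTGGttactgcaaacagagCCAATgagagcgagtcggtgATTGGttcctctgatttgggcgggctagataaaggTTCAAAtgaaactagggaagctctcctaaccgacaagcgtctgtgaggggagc
Prc1: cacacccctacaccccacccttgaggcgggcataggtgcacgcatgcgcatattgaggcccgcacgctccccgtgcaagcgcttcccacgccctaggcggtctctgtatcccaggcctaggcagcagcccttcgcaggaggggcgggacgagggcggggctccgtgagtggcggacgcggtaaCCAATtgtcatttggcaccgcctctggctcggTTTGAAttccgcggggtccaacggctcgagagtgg
Bub1: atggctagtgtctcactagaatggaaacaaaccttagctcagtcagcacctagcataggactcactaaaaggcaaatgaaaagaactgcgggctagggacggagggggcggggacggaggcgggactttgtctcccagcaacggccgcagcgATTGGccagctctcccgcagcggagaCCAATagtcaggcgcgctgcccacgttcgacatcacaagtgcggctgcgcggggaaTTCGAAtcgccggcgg
Mcm7: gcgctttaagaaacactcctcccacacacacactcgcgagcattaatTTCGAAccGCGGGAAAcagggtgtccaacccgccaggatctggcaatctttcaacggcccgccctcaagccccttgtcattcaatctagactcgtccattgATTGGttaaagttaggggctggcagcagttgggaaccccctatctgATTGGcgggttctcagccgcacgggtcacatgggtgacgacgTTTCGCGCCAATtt

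In the Bub1b promoter the homology region motif TTCGAA began at -188 from the start and an opposite-strand NF-Y box at -113. Prc1 paired an NF-Y box at -37 with TTTGAA at -5, and Bub1 had NF-Y boxes at -68 and -42 with TTCGAA at 15. Top2a held the most matches of the 6, with 5 NF-Y boxes and 4 homology region motifs in the letters shown. Mcm7, a subunit of the replicative helicase, carried 2 E2F motifs, the second of which overlaps an NF-Y box by 1 base. The window searched ran 50 bases past the start, and beyond the letters shown it held a TTTGAA at 31 in Plk1 and another at 41 in Bub1b.

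Promoter windows of 300 bases were found for 32 of the 41 genes. Those of Mcm4, Ccnd1, Ccna2, Ccne2, Foxm1, Tpx2, Aurkb, Kif20a and Gins1 had no entry. An NF-Y box was in 26 of the 32 windows (81.2%), against 37.4% of all 32851 windows. A homology region motif was in 12 of the 15 windows of mitosis genes (80.0%) and in 3 of the 11 of replication genes (27.3%), against 19.2% of all. An E2F motif was in 5 of the 11 replication windows (45.5%; Cdc6, Mcm3, Mcm5, Mcm6 and Mcm7), in 0 of the 15 mitosis windows, and in 1.84% of all. A match to these letters describes the window and does not show binding, and no binding was measured in these samples.

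**Figure D1:**
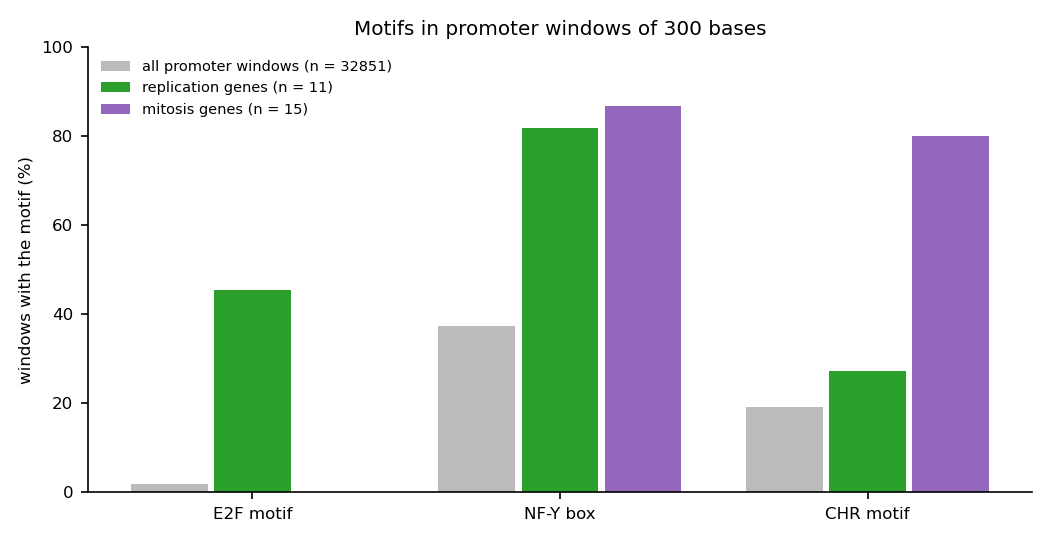
Share of promoter windows of 300 bases (y axis, percent) that hold an E2F motif, an NF-Y box or a homology region (CHR) motif, for all 32851 windows (grey), 11 replication genes (green) and 15 mitosis genes (purple). E2F motifs were in 45.5% of the replication windows and in 0 of the mitosis windows, while homology region motifs were in 80.0% of the mitosis windows.

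The first comparison asked whether loss of Il1a left the cell cycle genes different from wild type. The differences were small: the log2 differences ran from -0.09 to 0.15, with a median of 0.01 against 0.00030 over all genes. Of the 41 genes, 25 were above wild type and 16 below, and 0 passed an adjusted p of 0.05 (limma, Benjamini-Hochberg over all genes), where 34 genes (0.171%) passed among all genes. At an unadjusted p under 0.05 there was 1 gene above wild type, Pcna (4.53% of all genes), and 0 below (3.77%). Groups without overlap were found for 0 cell cycle genes, against 2.87% of all genes with the knockout above and 2.19% with it below. The largest differences were those of Pcna (0.15), Bub1b (0.13), Mki67 (0.12) and Plk1 (-0.09), with adjusted p from 0.353 to 0.902. Without Il1a KO replicate 1, the highest array of its group for Mki67, the Mki67 difference was 0.06 and that of Pcna 0.14. Without that array, 20 genes were above and 21 below, with 1 above at an unadjusted p under 0.05, and without wild type replicate 3, 15 were above and 26 below.

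In the Il1b KO most cell cycle genes lay below wild type, by amounts that no single gene carried past the threshold. Of the 41, 34 were lower (82.9%, against 48.0% of all genes), with a median log2 difference of -0.10 against 0.0040 over all genes and a range of -0.52 to 0.05. Again 0 passed the adjusted threshold, where 162 genes (0.813%) did among all genes; the lowest adjusted p was 0.100 (limma). At an unadjusted p under 0.05, 10 genes were lower (4.58% of all genes) and 0 higher (8.42%). They were Mcm6, Mcm7, Cdc6, Cdk1, Ccna2, Ccnb2, Aurkb, Plk1, Bub1b and Cenpf. The groups did not overlap for 2 genes, Mcm6 and Ccna2, both lower (1.94% of all genes, with 5.06% apart in the other direction).

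That count of 10 depended on single arrays. It was 5 without Il1b KO replicate 4 or without wild type replicate 2, 16 without wild type replicate 3 and 17 without Il1b KO replicate 2. Between 30 and 35 of the 41 genes were below wild type when any 1 array was left out. With another round of quantile normalization 30 genes were lower and the median was -0.05, while subtracting array medians gave 35 genes, a median of -0.11 and 18 genes at the unadjusted level. Because this is bulk tissue, fewer dividing cells and less RNA per cell cannot be told apart.

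Between the knockouts the Il1a KO was the higher for 36 of 41 genes (87.8%, against 47.3% of all genes), with a median log2 difference of 0.09 against -0.0042 over all genes. Of the 41 genes, 1 passed the adjusted threshold, Bub1b, which was higher in the Il1a KO, where 130 genes (0.652%) passed among all genes. At an unadjusted p under 0.05, 8 genes were higher (2.99% of all genes) and 0 lower (4.8%). They were Mcm5, Ccna2, Foxm1, Aurkb, Bub1b, Cenpf, Kif20a and Prc1. The groups did not overlap for 6 genes, Pcna, Ccna2, Bub1b, Cenpf, Prc1 and Top2a, all higher (2.55% of all genes, with 4.69% apart the other way). For Pcna and Top2a the gap was very small. The lowest Il1a KO array was at 11.248 and 6.805, and the highest Il1b KO array at 11.245 and 6.802. Without Il1a KO replicate 1, 37 genes were higher and 7 had an unadjusted p under 0.05; without Il1b KO replicate 2 the latter count was 14, and with array medians subtracted it was 13. This contrast uses the same knockout arrays as the comparisons with wild type and is no separate evidence for either.

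A test of any difference among the 3 groups called 0 of the 41 genes (limma; lowest adjusted p 0.0602), where 178 genes (0.893%) were called among all, and 10 of the 41 had an unadjusted p under 0.05 (11.5% of all genes). The lowest of the 3 group means was that of the Il1b KO for 33 genes, wild type for 6 and the Il1a KO for 2. The highest was that of the Il1a KO for 22, wild type for 15 and the Il1b KO for 4. With Il1a KO replicate 1 left out, the test of any difference called 0 and had 8 genes at an unadjusted p under 0.05. The lowest means were then distributed as before, at 33, 6 and 2, while the highest was in wild type for 20, the Il1a KO for 18 and the Il1b KO for 3.

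**Figure D2:**
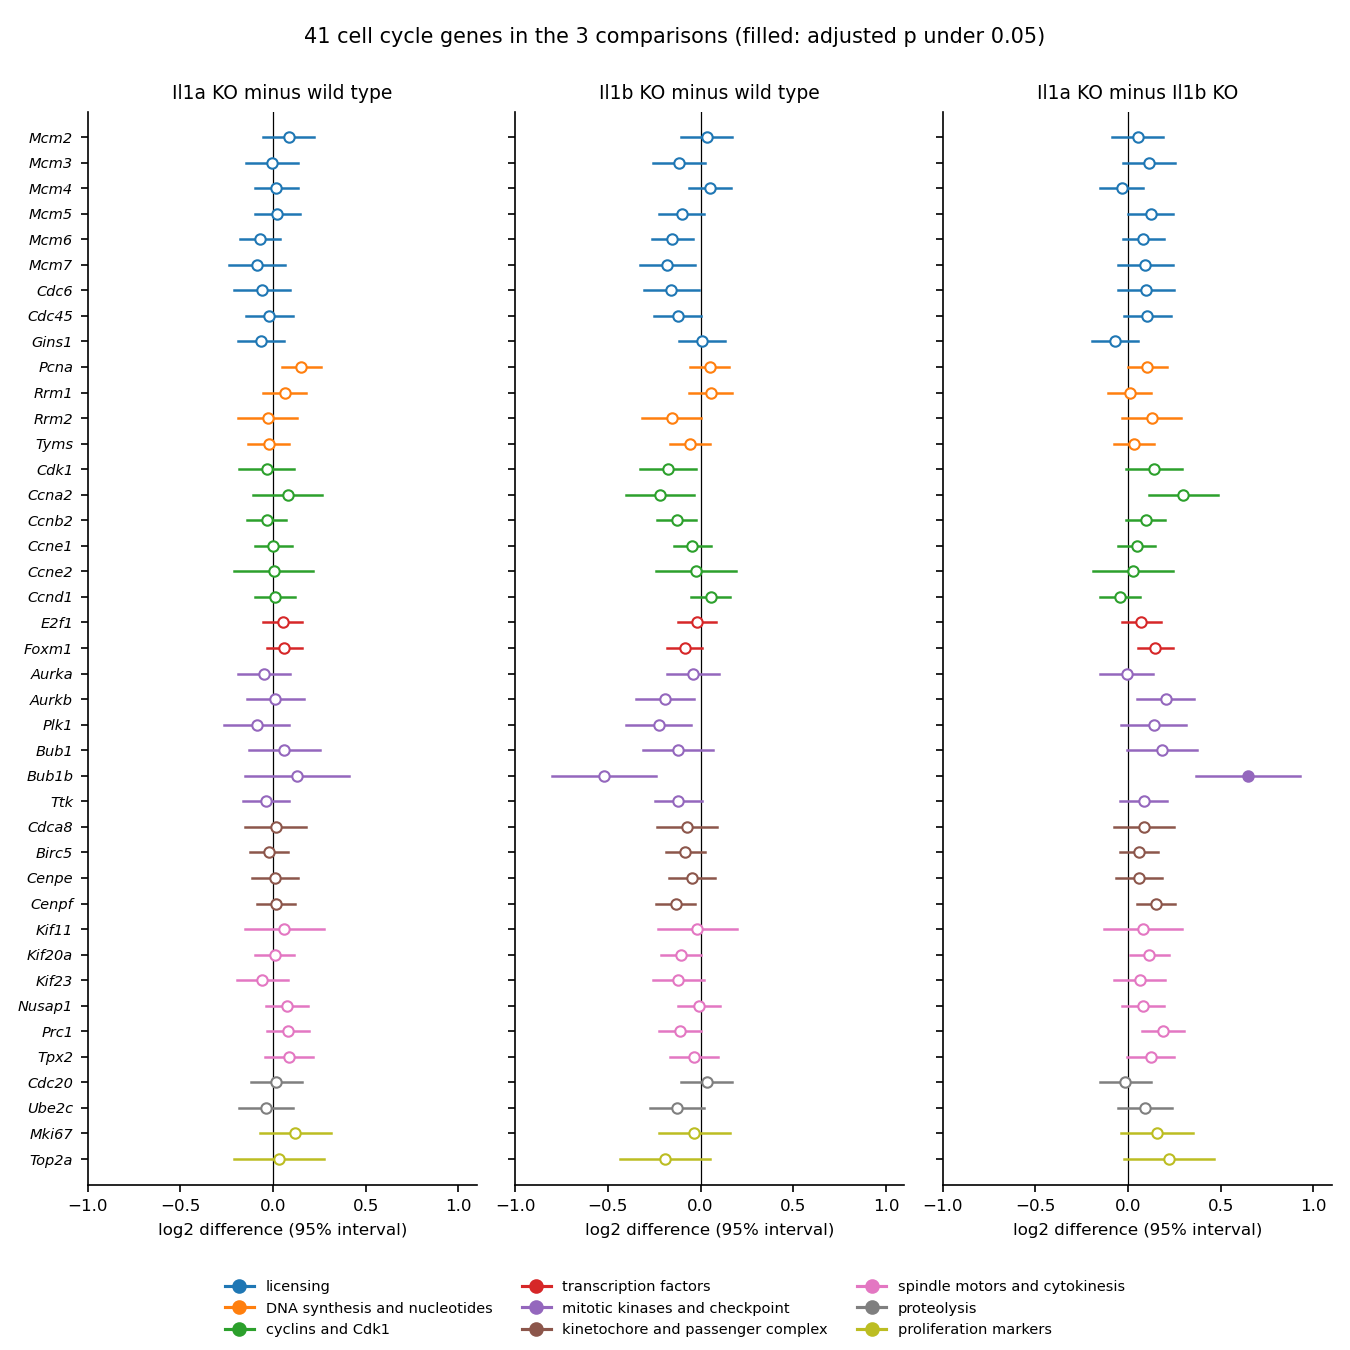
Log2 difference with its 95% interval for each of the 41 cell cycle genes in the 3 contrasts, ordered by role. Bub1b has the widest departure from 0, at -0.52 for Il1b KO minus wild type and 0.65 for Il1a KO minus Il1b KO, while the differences of Il1a KO minus wild type lie between -0.09 and 0.15.

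The helicase genes come first in the cycle. Mcm2 to Mcm7 encode the ring that unwinds DNA, Cdc6 helps load it, and Cdc45 and Gins1 belong to its activated form. In the Il1b KO, 6 of these 9 genes lay below wild type, with a median of -0.12. Mcm6 read 8.20, 8.41, 8.25 and 8.25 in wild type, 8.27, 8.20, 8.23 and 8.14 in the Il1a KO, and 8.13, 8.20, 8.10 and 8.08 in the Il1b KO. Every Il1b KO array was below every wild type array, although the closest pair both round to 8.20, and the difference of -0.15 did not pass (adjusted p = 0.227, limma). Mcm7 differed by -0.18 (adjusted p = 0.290) and Cdc6 by -0.16 (adjusted p = 0.361), and Mcm4, Mcm2 and Gins1 had differences of 0.05, 0.03 and 0.01.

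The genes of DNA synthesis did not share one direction in the Il1b KO. They are Pcna, the sliding clamp of the DNA polymerases, Rrm1 and Rrm2, the subunits of ribonucleotide reductase, and Tyms, which makes thymidylate. Pcna had its lowest value in wild type: 11.05, 11.27, 11.16 and 11.20, against 11.34, 11.25, 11.32 and 11.38 in the Il1a KO and 11.21, 11.24, 11.25 and 11.19 in the Il1b KO. The Il1a KO and wild type arrays overlapped only between replicate 2 of each. The log2 difference from wild type was 0.15 in the Il1a KO (adjusted p = 0.353) and 0.05 in the Il1b KO (adjusted p = 0.722). Rrm2, the subunit made mainly in S phase, differed by -0.16 in the Il1b KO (adjusted p = 0.395), Rrm1 by 0.05 and Tyms by -0.06.

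Among the cyclins, Ccna2, the cyclin of S phase and G2, had its Il1b KO arrays apart from both other groups. It read 7.34, 7.63, 7.38 and 7.53 in wild type, 7.76, 7.34, 7.54 and 7.55 in the Il1a KO, and 7.30, 7.28, 7.31 and 7.12 in the Il1b KO. The highest Il1b KO array, at 7.31, was below the lowest of wild type and of the Il1a KO, at 7.34. The difference was -0.22 from wild type (adjusted p = 0.300) and 0.30 between the knockouts (95% interval 0.11 to 0.48, adjusted p = 0.259), and neither passed. Without Il1a KO replicate 1, the highest array of that group, the difference between the knockouts was 0.23 (adjusted p = 0.499, limma).

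Cdk1, the kinase that drives entry into mitosis with the A and B cyclins, read 7.66, 7.72, 7.58 and 7.73 in wild type, 7.74, 7.54, 7.77 and 7.51 in the Il1a KO, and 7.49, 7.58, 7.57 and 7.35 in the Il1b KO. Its Il1b KO arrays reached only the lowest of wild type, a difference of -0.18 (adjusted p = 0.304). Ccnb2, a B-type cyclin, differed by -0.13 (adjusted p = 0.281). The G1 and G1-to-S cyclins differed less: Ccnd1 by 0.05, Ccne1 by -0.04 and Ccne2 by -0.02 in the Il1b KO. Of the transcription factors, Foxm1, an activator of late cell cycle genes, differed by 0.15 between the knockouts (adjusted p = 0.291), and E2f1, an activator of replication genes, by 0.07 (0.04 without Il1a KO replicate 1).

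Bub1b encodes BubR1, a part of the spindle checkpoint that holds back the anaphase-promoting complex until chromosomes are attached. It read 6.95, 6.84, 6.37 and 6.99 in wild type, 6.75, 7.11, 6.77 and 7.02 in the Il1a KO, and 6.31, 6.45, 6.08 and 6.22 in the Il1b KO. All Il1a KO arrays were above all Il1b KO arrays, and only wild type replicate 3 fell within the Il1b KO range. The difference between the knockouts was 0.65 (SE 0.13, 95% interval 0.37 to 0.93, 1.57-fold, adjusted p = 0.0409, limma). The Il1b KO differed from wild type by -0.52 (SE 0.13, interval -0.80 to -0.24, adjusted p = 0.100) and the Il1a KO by 0.13 (adjusted p = 0.902).

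The Bub1b call was near the threshold. It was lost when any 1 of 8 arrays was left out, with adjusted p from 0.0601 to 0.158: wild type replicate 2, each Il1a KO array, and Il1b KO replicates 1, 3 and 4. Without Il1a KO replicate 1 the difference was 0.70 (adjusted p = 0.0601), and over the 18 alternatives that tested it, it ran from 0.58 to 0.71. The comparison with wild type passed without wild type replicate 3, at -0.66 (adjusted p = 0.00764). Bub1b also had the widest spread of the 41 genes in wild type (SD 0.286) and in the Il1a KO (SD 0.179). Its mean level was low, at percentile 24.53 of all genes.

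**Figure D3:**
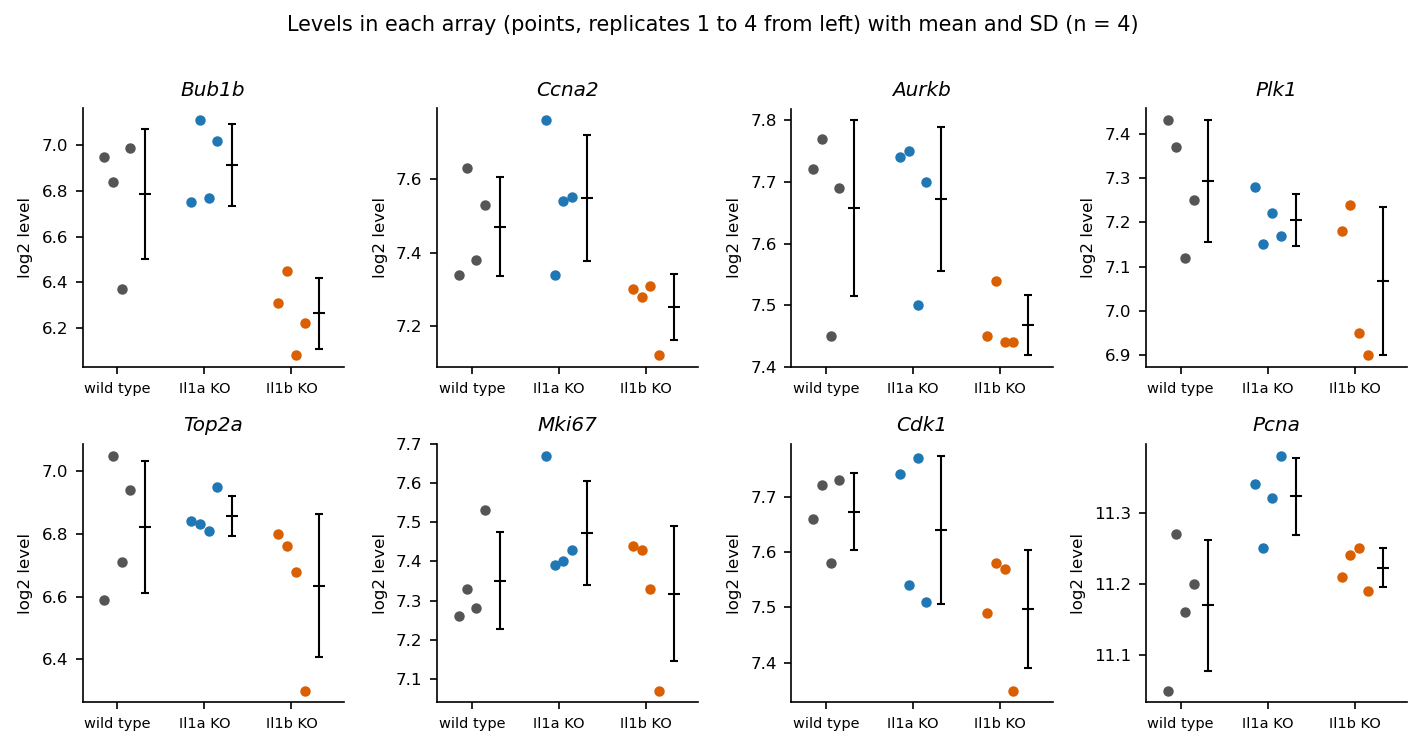
Log2 level (y axis) of 8 cell cycle genes in each of the 12 arrays, by group, with the group mean and SD (n = 4). The 4 Il1b KO arrays of Bub1b, 6.08 to 6.45, sit below the 4 of the Il1a KO, 6.75 to 7.11, and for Ccna2 they sit below all others.

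Bub1b lies on the chromosome of the deleted gene, at chr2:118598202-118641592 (GRCm38.p6), 10.70 Mb from Il1a, so its neighbours were looked at after its value had been seen. Of the 20 measured genes nearest in order, 10 on each side, 2 were called between the knockouts, Srp14 and Ivd. Srp14, of the signal recognition particle, was 0.40 higher in the Il1b KO than in wild type (adjusted p = 0.00724), and Ivd, a mitochondrial dehydrogenase of leucine breakdown, was 0.34 lower, a log2 difference of -0.34 (adjusted p = 0.00363). The Srp14 call between the knockouts (-0.32, adjusted p = 0.0378) was lost without any 1 of 9 arrays, all but wild type replicates 1 and 3 and Il1b KO replicate 2 (adjusted p from 0.0543 to 0.15), and that of Ivd (0.36, adjusted p = 0.00222) was lost in none of the 12 cases. Over chromosome 2 as a whole, 25 of 1737 genes were called between the knockouts (1.44%, against 0.652% of all genes). In the Il1b KO against wild type 26 of them were called (1.5%, against 0.813% of all genes). What part the position on chromosome 2 has in the Bub1b value was not tested.

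The cell cycle genes in the Il1b KO were also counted by chromosome. The 9 cell cycle genes on chromosome 2 (Bub1, Pcna, Nusap1, Bub1b, Gins1, Tpx2, E2f1, Ube2c and Aurka) were below wild type in 7 cases, with a median of -0.04. Of the other 32, 27 were below wild type, with a median of -0.11. Over all genes 48.0% were below. Both sets were read on the same arrays, and a difference between them was not tested.

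**Figure D4:**
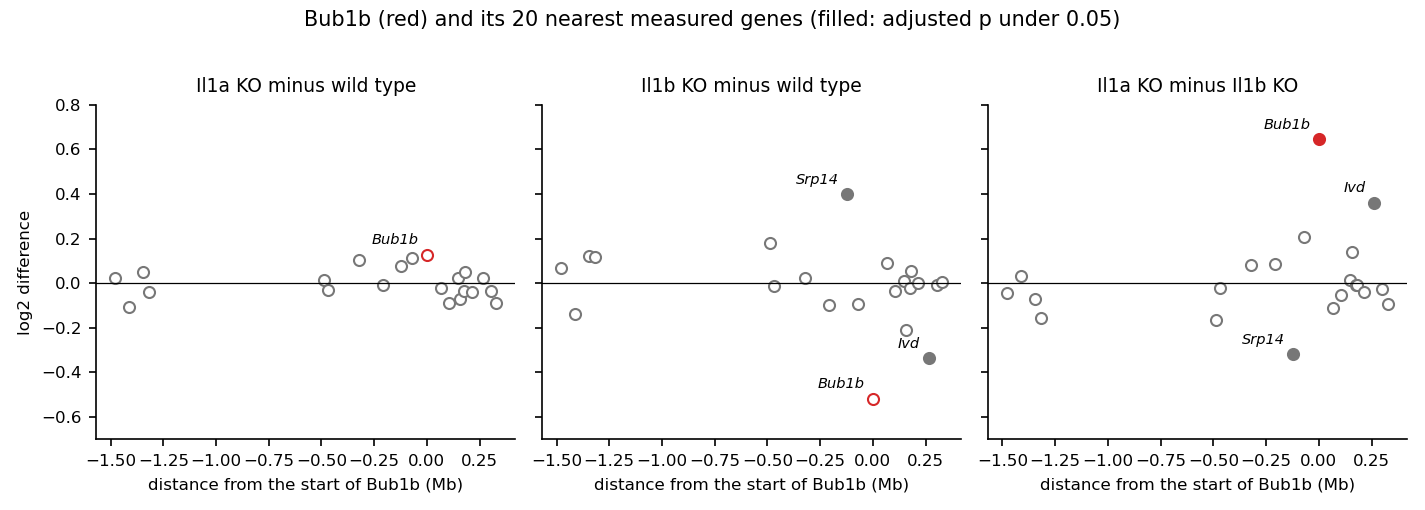
Log2 difference of Bub1b and its 20 nearest measured genes (x axis, distance from the start of Bub1b in Mb) in the 3 contrasts. Bub1b, Srp14 and Ivd are the genes called between the knockouts, and Srp14 has the opposite sign to Bub1b.

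The kinases of mitosis also lay lower in the Il1b KO, all 6 of the kinase and checkpoint genes being below wild type with a median of -0.16. Aurkb, the kinase of the chromosomal passenger complex, read 7.72, 7.77, 7.45 and 7.69 in wild type, 7.74, 7.75, 7.50 and 7.70 in the Il1a KO, and 7.45, 7.54, 7.44 and 7.44 in the Il1b KO. Replicate 3 was the low array of both wild type and the Il1a KO and lay within the Il1b KO range. The difference from wild type was -0.19 (adjusted p = 0.278) and that between the knockouts 0.20 (adjusted p = 0.432).

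Plk1, a kinase that acts from entry into mitosis to its exit, read 7.43, 7.37, 7.12 and 7.25 in wild type, 7.28, 7.15, 7.22 and 7.17 in the Il1a KO, and 7.18, 7.24, 6.95 and 6.90 in the Il1b KO. The 3 groups overlapped, and the Il1b KO differed from wild type by -0.23 (adjusted p = 0.267). Bub1 and Ttk, kinases of the spindle checkpoint, each differed by -0.12 (adjusted p = 0.599 and 0.406). Aurka, the spindle pole kinase, differed by -0.04.

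The genes that attach and move chromosomes showed the same sign with smaller sizes, but they were also dimmer. In wild type the mean level was 6.20 for the kinetochore and passenger genes and 6.44 for the spindle and cytokinesis genes. It was 6.86 for the kinase and checkpoint genes. The inferred processing compresses differences of dim genes, so the sizes of these lists cannot be compared directly. All 4 of the kinetochore and passenger genes were below wild type in the Il1b KO: Cenpf at -0.13 (adjusted p = 0.263), Birc5 and Cdca8, partners of Aurkb, at -0.08 and -0.07, and the kinetochore motor Cenpe at -0.05. The 6 spindle and cytokinesis genes were likewise all below wild type, with a median of -0.07, and all higher in the Il1a KO than in the Il1b KO, with a median of 0.10. Prc1, which bundles the midzone microtubules, differed by 0.19 between the knockouts (adjusted p = 0.229). Kif20a and Kif23, motors of cytokinesis, were at -0.11 and -0.12 in the Il1b KO, and Kif11, Nusap1 and Tpx2, which build the spindle, were at -0.02, -0.0074 and -0.04. Of the genes of mitotic proteolysis, Ube2c, the ubiquitin-conjugating enzyme of the anaphase-promoting complex, was at -0.13 and its activator Cdc20 at 0.03.

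The genes most used to mark dividing cells gave no call. Mki67, which encodes the Ki-67 protein, read 7.26, 7.33, 7.28 and 7.53 in wild type, 7.67, 7.39, 7.40 and 7.43 in the Il1a KO, and 7.44, 7.43, 7.33 and 7.07 in the Il1b KO. The 3 groups overlapped, and the Il1b KO differed from wild type by -0.03 (adjusted p = 0.907). Top2a, the topoisomerase that untangles replicated chromosomes, read 6.59, 7.05, 6.71 and 6.94 in wild type, 6.84, 6.83, 6.81 and 6.95 in the Il1a KO, and 6.80, 6.76, 6.68 and 6.30 in the Il1b KO. The Il1a KO arrays were all above those of the Il1b KO, with a difference of 0.22 (adjusted p = 0.687).

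Averaged over the 41 genes, an array's level ran from 7.37 to 7.49 in wild type, 7.42 to 7.48 in the Il1a KO and 7.28 to 7.42 in the Il1b KO. For the 18 mitosis genes these ranges were 6.49 to 6.64, 6.58 to 6.64 and 6.44 to 6.58. For the 13 replication genes they were 8.12 to 8.25, 8.13 to 8.22 and 8.06 to 8.18. Over all 41 genes every Il1b KO array was below every Il1a KO array, although the closest pair both round to 7.42, and the Il1b KO and wild type ranges overlapped. The arrays within a group did not contribute alike. Within the Il1b KO, replicate 4 had the lowest value for 22 of the 41 genes (53.7%, against 24.8% of all genes), and replicate 2 the highest for 24 (58.5%, against 35.2%). Within wild type, replicate 3 had the lowest value for 20 (48.8%, against 38.3% of all genes) and replicate 1 for 17 (41.5%, against 24.7%). The highest wild type value was that of replicate 2 for 16 (39.0%, against 23.1%) and of replicate 4 for 14 (34.1%, against 11.3%).

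**Figure D5:**
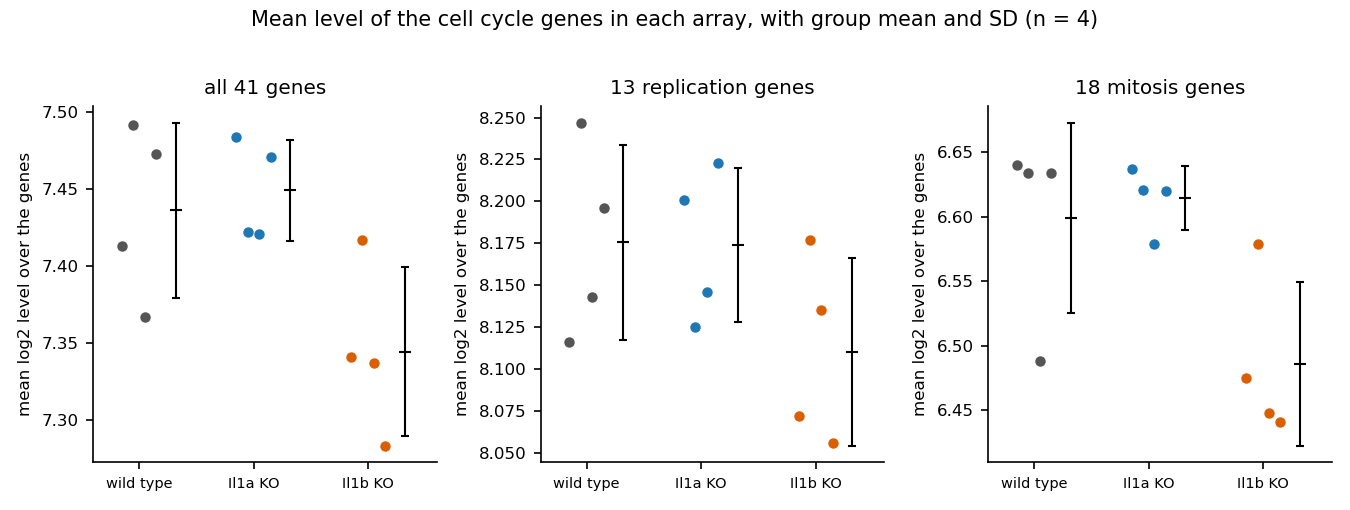
Mean log2 level (y axis, not starting at 0) over all 41 cell cycle genes, the 13 replication genes and the 18 mitosis genes in each array, with group mean and SD (n = 4). In the mean of 41 genes the highest Il1b KO array, replicate 2, lies within the wild type range and just below the lowest Il1a KO array, and in the mitosis genes wild type replicate 3, at 6.49, lies within the Il1b KO range.

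A wider set of 109 cell cycle genes outside the 41 was looked at in the same way, and 0 passed the adjusted threshold in any contrast (limma). At an unadjusted p under 0.05 there were 1 higher and 4 lower in the Il1a KO, 2 higher and 17 lower in the Il1b KO, and 11 higher and 5 lower between the knockouts. Over all genes the shares higher and lower were 4.53% and 3.77%, 8.42% and 4.58%, and 2.99% and 4.8% in that order. Without Il1a KO replicate 1 the counts were 1 and 5 in the Il1a KO and 9 and 5 between the knockouts, with 0 called in each. In the Il1b KO, 40 of 51 further mitosis genes lay below wild type with a median of -0.05, and 19 of 27 further replication genes with a median of -0.04. Hmgb2, a chromatin protein abundant in dividing cells, differed by -0.20 (adjusted p = 0.111), as did Mcm10, a replication initiation factor (adjusted p = 0.279), and Espl1, the protease that splits cohesin, by -0.17 (adjusted p = 0.291). Between the knockouts, Tacc3, a spindle protein, differed by 0.18 (adjusted p = 0.190) and Pole, the leading-strand polymerase, by 0.17 (adjusted p = 0.119). The kinetochore gene Cenpk stood at 0.19 there (adjusted p = 0.489). In the Il1a KO, Sgo2a, a protector of centromeric cohesion, was at 0.15 (adjusted p = 0.382), and the clamp loader gene Rfc3 and the licensing gene Cdt1 each at -0.14 (adjusted p = 0.645 and 0.296). Rfc3 was at -0.07 there without Il1a KO replicate 1. Rfc3 was at -0.15 in the Il1b KO (adjusted p = 0.381).

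The genes that start or restrain the cycle gave a mixed picture. Of 9 G1 control genes, 6 were below wild type in the Il1b KO with a median of -0.03, Myc, a driver of growth and division, being at -0.12 (adjusted p = 0.411) and E2f2, an activator E2F, at -0.15 (adjusted p = 0.606). Between the knockouts E2f2 was at 0.25 (adjusted p = 0.631) and Cdk2, the partner of cyclin E, at 0.13 (adjusted p = 0.643). Cdk6, a partner of the D cyclins, was at -0.10 in the Il1a KO (adjusted p = 0.602). Of 22 brakes on the cycle, 13 were below, with a median of -0.06. Btg2, an anti-proliferative gene, was at 0.20 in the Il1b KO (adjusted p = 0.360) and at -0.27 between the knockouts (adjusted p = 0.359). Gadd45a, induced by stress and DNA damage, was at -0.22 in the Il1a KO (adjusted p = 0.180), and Cdkn2a, which encodes a CDK inhibitor, at -0.15 (adjusted p = 0.667). Gadd45g, a relative of Gadd45a, was at -0.21 between the knockouts (adjusted p = 0.229), and Ccng2, an atypical cyclin that restrains the cycle, at -0.17 in the Il1b KO (adjusted p = 0.233).

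Markers of several cell types moved beside these values. All 7 oligodendrocyte precursor markers were above wild type in the Il1b KO, opposite to the cell cycle genes, with a median of 0.15. All 7 had an unadjusted p under 0.05, against 8.42% of all genes that were higher at that level, and 0 passed the adjusted threshold. The rise was shared by the Il1a KO, where 6 of the 7 were above wild type with a median of 0.17. There 4 had an unadjusted p under 0.05 (4.53% of all genes were higher at that level), and 0 passed the adjusted threshold. Without Il1a KO replicate 1 these counts were 6 and 2, with a median of 0.12. The mean level of the 7 markers ran from 9.42 to 9.56 in wild type, 9.57 to 9.74 in the Il1a KO and 9.63 to 9.79 in the Il1b KO. Microglia markers were below wild type in 7 of 8 cases in the Il1b KO with a median of -0.05, and their means ran from 8.31 to 8.50, 8.45 to 8.56 and 8.36 to 8.44 in the same order of groups. The exception was Fcrls, which stood at 0.34 in the Il1b KO (adjusted p = 0.0636). Between the knockouts 4 microglia markers were higher and 4 lower (5 and 3 without Il1a KO replicate 1), with a median of 0.03. Of these, Gpr34 was called, at 0.31 (adjusted p = 0.0299), where 0.652% of all genes were called. That call was lost without any 1 of 9 arrays, namely wild type replicate 4 and each knockout array (adjusted p from 0.051 to 0.114, the latter without Il1a KO replicate 1).

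Of 11 neutrophil markers, 9 were below wild type in the Il1b KO with a median of -0.25. At an unadjusted p under 0.05, 4 were lower (4.58% of all genes). Of the 11, 1 was called, Ly6g, which fell by 0.55 (adjusted p = 0.00869, limma), where 0.813% of all genes were called. Leaving out 1 array lost that call in 0 of 12 cases. All 11 were below wild type in the Il1a KO with a median of -0.35 (10 of 11 and -0.34 without Il1a KO replicate 1). There 5 were lower at the unadjusted level (3.77% of all genes), and 0 passed the adjusted threshold. The means of the 11 markers ran from 7.51 to 7.88 in wild type, 7.20 to 7.53 in the Il1a KO and 7.06 to 7.77 in the Il1b KO. Monocyte and macrophage markers were below wild type in 5 of 9 cases in the Il1b KO, and their means ran from 8.88 to 9.20, 8.69 to 8.96 and 8.77 to 9.12. All 7 mature oligodendrocyte markers were above wild type in both knockouts, with medians of 0.20 in the Il1a KO (0.15 without its replicate 1) and 0.12 in the Il1b KO. Of the 7, 5 and 4 had an unadjusted p under 0.05, and 0 passed the adjusted threshold. Among all genes 4.53% and 8.42% were higher at the unadjusted level, and without Il1a KO replicate 1 the first count was 4. The means of these 7 markers ran from 11.06 to 11.23 in wild type, 11.29 to 11.45 in the Il1a KO and 11.17 to 11.33 in the Il1b KO. Of 7 pericyte and fibroblast markers 5 were above wild type in the Il1b KO. Rgs5, a pericyte gene, rose by 0.22 (adjusted p = 0.033), where 0.813% of all genes were called. The Rgs5 call was lost without any 1 of 7 arrays, namely wild type replicates 3 and 4, Il1a KO replicates 2 and 4 and Il1b KO replicates 1, 3 and 4 (adjusted p from 0.0523 to 0.124). Endothelial means ran from 9.30 to 9.36, 9.32 to 9.36 and 9.33 to 9.42, and ependymal means from 7.18 to 7.50, 7.36 to 7.42 and 7.29 to 7.39. Gpr34, Fcrls, Ly6g, Rgs5 and the muscle list were picked out after their values were seen. The 6 skeletal muscle markers were below wild type in both knockouts, with medians of -0.18 in the Il1a KO and -0.22 in the Il1b KO. At an unadjusted p under 0.05, 4 and 3 were lower (3.77% and 4.58% of all genes), and 0 passed the adjusted threshold. Their means ran from 6.97 to 7.43 in wild type, 6.98 to 7.01 in the Il1a KO and 6.89 to 7.07 in the Il1b KO. Wild type replicates 1 and 3 had the highest means, at 7.32 and 7.43, and replicate 2, at 6.97, was below every Il1a KO array. The part of these cell types in the values of the cell cycle genes was not tested.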

How the data were processed

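Gene expression was measured on whole-transcript arrays of injured mouse spinal cord, 12 arrays in 3 groups of 4. The values deposited by the authors are log2 levels, with a single number for a probe set in an array. The submitters' processing notes name Partek, RMA, limma and GCOS 1.4 without saying what each did. That the values are RMA summaries was inferred from these notes and the near-equal distributions. RMA evens out overall shifts in RNA amount and compresses differences of dim genes. For the probe annotation, the genome build is not given in the sources used here.

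There were 35557 probe sets, and 21789 had 1 gene symbol in the platform annotation. The brightest set stood for each gene, which left 19938 genes, 19856 of them matched to RefSeq genes of GRCm38.p6. The 2 probe sets of Pcna held identical values and count once. The 3 contrasts were tested in limma 3.58.1 (R 4.3.3), with 1 mean per group over all 12 arrays and two-sided moderated statistics. Adjustment was by Benjamini-Hochberg across all genes of a contrast, with a threshold of 0.05, and unadjusted counts use the same 0.05. Arrays have no read depth, so precision is limited by how many there are. Any cell cycle gene could be named. Values in every array are given for those past the threshold, the 4 with the largest differences in each contrast, and Mki67, Top2a and Cdk1; those of Mcm6 were added after they were seen. From each wider list the 2 genes with the largest differences per contrast were named. Promoters were those of the called gene and then of the largest differences. The cell cycle genes and the lists were chosen with earlier results of these data known. Alternatives were other scalings, a filter on low values, the mean of all probe sets of a gene, trend and robust moderation, fits of only 2 groups, a replicate block, and leaving out each array.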

Additional observations from a re-analysis of the deposited data

Results flagged for a closer look

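In 8 of the 123 groups of 4 arrays (41 genes in 3 groups), or 6.5%, 1 array lay far from the other 3, where chance gives about 1 in 20. In wild type these were Mcm7 in replicate 2 at 8.51 (nearest array 8.25), Ccne1 in replicate 3 at 8.78 (nearest 8.94) and Kif20a in replicate 3 at 6.10 (nearest 6.24). In the Il1a KO it was Mki67 in replicate 1, the array that stood apart in its sex-linked genes, at 7.67 (nearest 7.43). In the Il1b KO they were Ccna2 in replicate 4 at 7.12 (nearest 7.28), and replicate 2 for Ccne1 at 8.81 (nearest 8.87), Aurkb at 7.54 (nearest 7.45) and Prc1 at 6.36 (nearest 6.26). The difference of Bub1b from wild type was not the same in the knockouts: the contrast between them was 0.65 (adjusted p = 0.0409, limma), which is the same test as given above.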

How the results depend on the processing

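The number of cell cycle genes called in the Il1a KO against wild type was 0 under every alternative, as was that of the wider lists in all 3 contrasts. In the Il1b KO against wild type it was 1 (Bub1b) with an intensity trend and robust moderation (adjusted p = 0.0487), and 0 to 1 when leaving out 1 array. Between the knockouts it was 0 with the lowest 25% of genes left out, where 29 of the genes remained and Bub1b was not tested, and 0 to 1 when leaving out 1 array. The test of any difference called 1 after another quantile normalization, after subtracting array medians and with trend and robust moderation, and 0 to 1 when leaving out 1 array. Bub1b had an adjusted p of 0.00421 to 0.158 between the knockouts and 0.00764 to 0.296 against wild type in the Il1b KO. Of 767 values per contrast under the alternatives, 46, 30 and 11 had the other sign in the order Il1a KO, Il1b KO and between knockouts, all in genes that passed no threshold. The cause was not tested.

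The groups share replicate numbers, but the numbers did not pair the arrays: same-numbered arrays deviated from their group means with correlations of -0.374 to 0.441, and an array was closest to its own number in 4 of 24 comparisons with another group. With the replicate number as a block, the genes called among all were 26, 120 and 105, against 34, 162 and 130. Of the cell cycle genes 1 was then called in the Il1b KO against wild type (Bub1b, adjusted p = 0.0348), 1 between the knockouts and 1 for any difference.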
